A study of Mus musculus with 8 samples.

Results

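Matricellular proteins are secreted into the extracellular matrix but act there mainly as signals and modulators rather than as structural fibres. The 10 genes described here are 3 thrombospondins (Thbs1, Thbs2 and Thbs4), tenascin C (Tnc), periostin (Postn), Sparc, and 4 members of the CCN family (Ccn1, Ccn2, Ccn3 and Ccn4). They were chosen by symbol, as the rows of the deposited table that the platform annotation gives to exactly 1 of these names. Each of the 10 genes had 1 such row, and all 10 were among the 15007 genes tested, so none was lost to the filter on dim rows.

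Whole tibialis anterior, a leg muscle of male C57BL/6 mice, was taken 8 days after it had been frozen with a chilled metal probe. The 4 ST2 flox samples came from Foxp3-Cre/ST2 flox mice, in which Foxp3-Cre removes the floxed ST2 gene from Foxp3-expressing cells, and the 4 ST2 WT samples came from Foxp3-Cre/ST2 WT mice, so both groups carry Foxp3-Cre. ST2 is the receptor for interleukin-33, and Foxp3 marks regulatory T cells, which are a small part of an injured muscle. Age is stated as 10 weeks in the labels and as 2 months in the series text. All 8 samples were injured and taken at the same time. Samples are numbered within a group, with no statement that each came from its own animal, so the p-values cover only the spread among these samples, and that spread may be technical.

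In injured muscle these genes are known as part of the provisional matrix of repair. Thrombospondins bind cell-surface receptors such as Cd36, Cd47 and integrins, and thrombospondin 1 can activate latent TGF-beta. Tenascin C and periostin are deposited where tissue is remodelled and cells migrate, Sparc binds collagen and guides its assembly, and Ccn1 and Ccn2 are classic targets of the mechanosensitive coactivators YAP and TAZ, with Ccn2 also a target of TGF-beta. In whole-muscle RNA, fewer cells of a type and less RNA per cell cannot be told apart.

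Genes of mature fast fibres were strong on every array (Myh4, fast myosin, averaged 13.41 log2 in flox and 13.45 in WT), and embryonic myosin Myh3 was present (9.49 in flox and 9.39 in WT), as the label of regenerating muscle states. Median intensity per array lay between 185 and 189. Some of the arrays stood apart. Flox arrays 1 to 4 lay above every WT array for 4, 8, 7 and 3 of the 10 genes. The shares of all genes tested were 31.8%, 27.1%, 19.7% and 22.9%. Flox array 1 was the highest of the 8 for 4 of the 10 genes, where 20.3% of all genes tested were highest there. Its median correlation with the other arrays was the lowest, with that of flox array 2 almost equal (r = 0.9877 and 0.988, across genes). Flox array 4 was the lowest of the 8 for 5 of the 10 genes, where 18.4% of all genes tested were lowest there. The skin keratins Krt5 and Krt10 were high on WT array 4, with a summed intensity of 1167. Their sum ranged from 204 to 288 on the flox arrays and from 244 to 254 on WT arrays 1 to 3. Only these 2 of the 4 keratins chosen as skin markers were tested, since Krt14 and Krt1 were below the filter.

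None of the 10 genes passed the threshold in limma, a linear model fitted to all genes with Benjamini-Hochberg adjustment (threshold 0.05; smallest adjusted p among the 10 genes 0.912). Over all genes tested 0% passed. The log2 mean was higher in flox for 9 of the 10 genes, against 48.8% of all genes tested, and the median difference was 0.11 log2, against -0.0025 over all genes. That share depended on the filter on dim rows and was 44.1% with no filter. With the filter at the 50th percentile, which kept all 10 genes, it was 57.4%, with a median of 0.014 log2. At an unadjusted p under 0.05 there were 2 of the 10 genes, Thbs1 and Ccn2, both higher in flox, against 2.03% of all genes higher and 1.77% lower at that level, or 3.79% in either direction. The 10 genes share the same 8 arrays, so these counts carry no p of their own. Flox and WT arrays overlapped for all 10 genes, whereas 1.97% of all genes tested had groups that did not overlap.

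**Figure D1:**
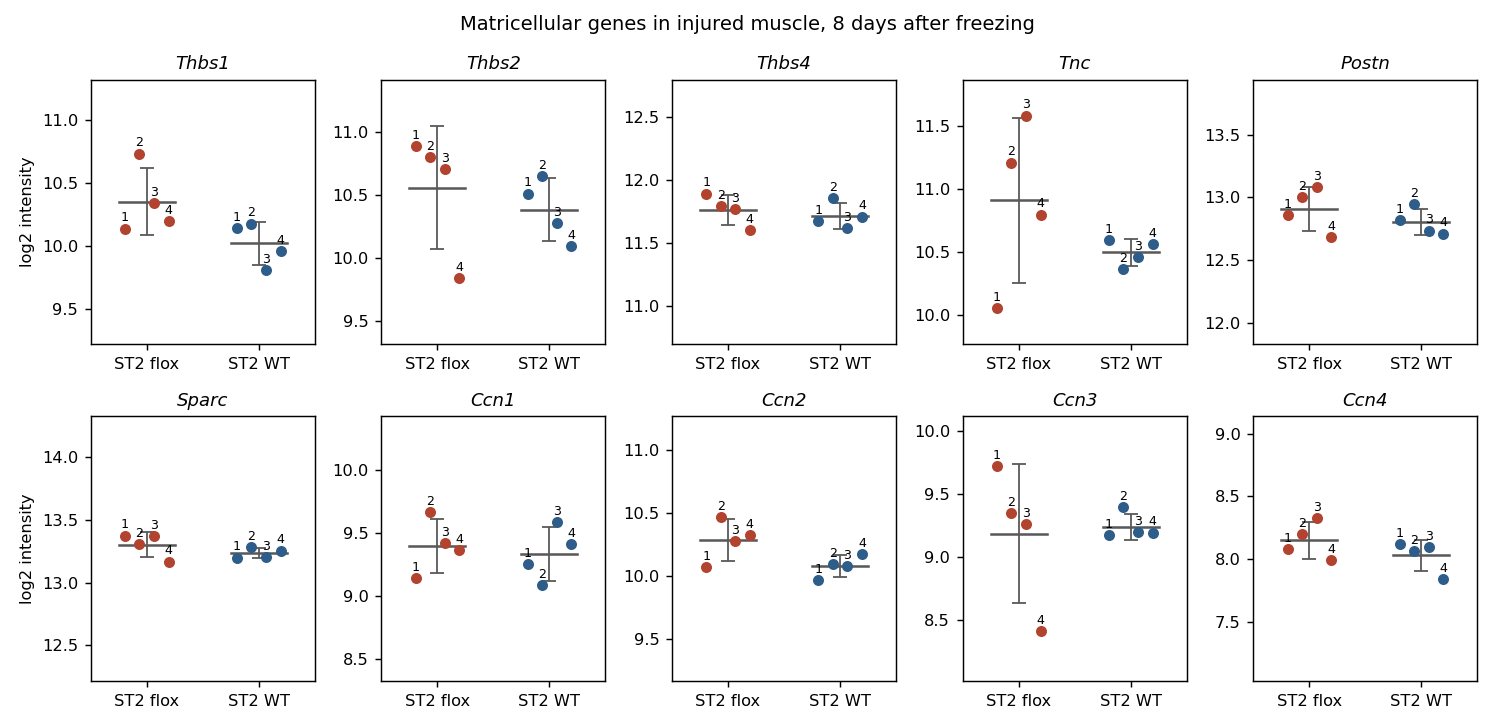
Log2 intensity (vertical axis) of each of the 10 genes on every array, ST2 flox on the left and ST2 WT on the right of each panel. Points carry the sample number, the horizontal line is the group mean and the bar is 1 SD (n = 4 per group). Each vertical axis spans the same number of log2 units, so the wide scatter of Tnc, Thbs2 and Ccn3 in flox can be set against the tight scatter of Sparc and Thbs4.

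Promoter windows from RefSeq (build GRCm38.p6) were found for 6 of the 10 genes, 8 windows in all. The 250 bases before each start were searched on both strands for the letters GGAATG, the core word of TEAD factors, and CAGACA, a word bound by SMAD proteins, which do not overlap each other. Stretches are shown for Thbs2, Thbs4 and Sparc, whose levels varied together across the arrays, for Tnc, which varied most, and for the YAP target Ccn1. Capitals mark the word, here read on the strand opposite to the gene, so the letters appear as their reverse complement. The Thbs2 stretch holds the SMAD word again, in lower case, near its end.
Thbs2, chr17:14694297-14694356, minus strand, SMAD word: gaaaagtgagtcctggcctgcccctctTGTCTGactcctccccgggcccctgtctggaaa
Thbs4, chr13:92795013-92795068, minus strand, SMAD word: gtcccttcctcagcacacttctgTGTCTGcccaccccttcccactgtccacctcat
Sparc, chr11:55420084-55420143, minus strand, SMAD word: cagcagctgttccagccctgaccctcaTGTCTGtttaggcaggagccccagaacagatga
Tnc, chr4:64046975-64047034, minus strand, SMAD word: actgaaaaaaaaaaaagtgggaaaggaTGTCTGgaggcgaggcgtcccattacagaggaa
Ccn1, chr3:145650056-145650115, minus strand, TEAD word: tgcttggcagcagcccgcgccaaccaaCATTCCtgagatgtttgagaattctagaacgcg

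The SMAD word lay in 4 of the 8 windows, those of Thbs2, Thbs4, Sparc and 1 of the Tnc windows, and in 17.1% of all 32851 windows of that length. The TEAD word lay in 2 of the 8 windows, those of Ccn1 and Thbs4, and in 12.6% of all windows. In Ccn1 it ended 98 bases before the start. A match of letters is a description and does not show that a factor binds there.

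Thbs1, the thrombospondin that binds Cd36 and Cd47, had the smallest p of the 10 genes. The 4 flox arrays, in order of sample number, had log2 levels of 10.14, 10.73, 10.34 and 10.20, against 10.14, 10.18, 9.81 and 9.96 on WT arrays 1 to 4. Flox arrays 2, 3 and 4 lay above every WT array, and flox array 1 lay below WT arrays 1 and 2. The difference, flox minus WT, was 0.33 log2 (SE 0.13, 95% interval 0.04 to 0.62, n = 4 and 4), or 1.26-fold, with an unadjusted limma p of 0.0283 and an adjusted p of 0.912. Flox array 2 carried a large share of it, and without that array the difference was 0.21. The unadjusted limma p was 0.0673 there, 0.0861 without WT array 3 and 0.0651 without WT array 4.

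Thbs2, a thrombospondin made mainly by fibroblasts, separated the arrays in another way. On flox arrays 1 to 4 the log2 level of Thbs2 was 10.89, 10.80, 10.71 and 9.84, against 10.51, 10.65, 10.28 and 10.09 on WT arrays 1 to 4. Flox arrays 1 to 3 were all above the WT arrays, while flox array 4 was the lowest of the 8. The difference was 0.18 log2 (SE 0.21, 95% interval -0.30 to 0.65; limma adjusted p 0.919). It was 0.42 without flox array 4, with an unadjusted limma p of 0.00636 and an adjusted p of 0.152, and 0.07 without flox array 1. Leaving out flox array 4 brought 20.1% of all genes tested to an unadjusted p under 0.05, against 3.79% over all arrays, so the smaller p was not particular to Thbs2.

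Thbs4, a thrombospondin of tendon and muscle matrix, moved within a narrow range. Thbs4 stood at log2 levels of 11.89, 11.79, 11.77 and 11.60 on flox arrays 1 to 4, against 11.68, 11.86, 11.62 and 11.71 on WT arrays 1 to 4. The highest value was on flox array 1 and the lowest on flox array 4, with all WT arrays between them. The difference was 0.05 log2 (SE 0.08, 95% interval -0.12 to 0.22; limma adjusted p 0.932), so a difference of more than 0.22 log2 in either direction lies outside the interval. Leaving out flox array 1 gave 0.0040, and leaving out flox array 4 gave 0.10.

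Tnc showed the largest difference of the 10 genes and the largest spread. Tenascin C is scarce in resting adult muscle and rises after injury. Log2 levels of Tnc were 10.05, 11.21, 11.58 and 10.8 on flox arrays 1 to 4, against 10.59, 10.36, 10.46 and 10.56 on WT arrays 1 to 4. Flox arrays 2, 3 and 4 lay above every WT array and flox array 1 below every WT array, so that the flox arrays lay on both sides of a tight WT group. In intensity, flox array 3 reached 3060 and flox array 1 stood at 1061, while the WT arrays ran from 1317 to 1546. The difference was 0.41 log2 (SE 0.26, 95% interval -0.16 to 0.99; limma unadjusted p 0.138, adjusted p 0.912). Without flox array 1 it was 0.70, and without flox array 3 it was 0.19.

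Postn and Sparc had small differences. Postn, a protein that binds collagen and integrins and is made by activated fibroblasts, had log2 levels of 12.86, 13.00, 13.08 and 12.69 on flox arrays 1 to 4, against 12.82, 12.94, 12.74 and 12.71 on WT arrays 1 to 4. Flox arrays 2 and 3 were above every WT array and flox array 4 below every WT array. The difference was 0.11 log2 (SE 0.09, 95% interval -0.10 to 0.31; limma adjusted p 0.912), with values of 0.18 when flox array 4 was left out and 0.05 when flox array 3 was left out. Sparc, the collagen-binding glycoprotein, had log2 levels of 13.17 to 13.37 on the flox arrays and 13.20 to 13.28 on the WT arrays. Flox arrays 1, 2 and 3 were above every WT array and flox array 4 below every WT array. Its difference was 0.07 log2 (SE 0.06, 95% interval -0.07 to 0.21; limma adjusted p 0.912), with 0.05 when flox array 1 was left out and 0.11 when flox array 4 was.

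**Figure D2:**
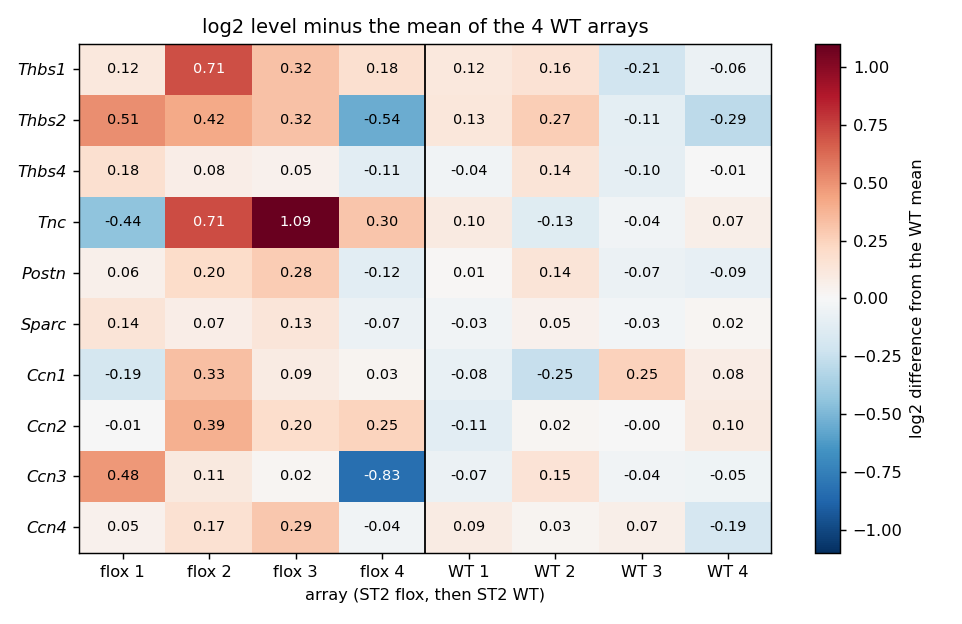
Log2 level of each gene on each array minus the mean of the 4 WT arrays (colour and printed value), with the ST2 flox arrays left of the ST2 WT arrays. Tnc stands at -0.44 on flox array 1 and at 1.09 on flox array 3, and Ccn3 stands at 0.48 and -0.83 on flox arrays 1 and 4.

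Ccn2, also known as connective tissue growth factor, was the other gene at an unadjusted p under 0.05. On flox arrays 1 to 4 the log2 level of Ccn2 was 10.07, 10.47, 10.27 and 10.32, against 9.96, 10.09, 10.07 and 10.17 on WT arrays 1 to 4. Flox arrays 2, 3 and 4 were above every WT array, and flox array 1 was lower than 3 of the WT arrays. The difference was 0.21 log2 (SE 0.08, 95% interval 0.02 to 0.40), or 1.15-fold, with an unadjusted limma p of 0.0344 and an adjusted p of 0.912. Its unadjusted p was above 0.05 after quantile normalization or cyclic loess, where the difference was 0.19 in each. With 1 array left out it stayed under 0.05 only without flox array 1 or WT array 4, and the largest limma p was 0.104, without flox array 2.

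Ccn1, a heparin-binding angiogenic protein, had a smaller difference than Ccn2, though its interval includes the Ccn2 difference of 0.21, and the 2 were not compared in a test. Ccn1 stood at log2 levels of 9.15, 9.67, 9.42 and 9.37 on flox arrays 1 to 4, against 9.26, 9.09, 9.59 and 9.42 on WT arrays 1 to 4. The groups lay over each other, and the difference was 0.07 log2 (SE 0.13, 95% interval -0.21 to 0.34; limma adjusted p 0.942). It turned to -0.02 without flox array 2 and also to -0.02 without WT array 2, and was 0.15 without flox array 1. Within groups, Ccn1 and Ccn2 had a correlation of r = 0.67 (log2 values minus the group mean, 8 arrays).

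Ccn3, a CCN protein known to counter some effects of Ccn2, was the only one of the 10 genes with a lower mean in flox. Log2 levels of Ccn3 were 9.72, 9.35, 9.27 and 8.41 on flox arrays 1 to 4, against 9.18, 9.40, 9.20 and 9.20 on WT arrays 1 to 4. The flox arrays held both the highest and the lowest value, and the other flox arrays lay near the WT arrays. The difference was -0.05 log2 (SE 0.22, 95% interval -0.54 to 0.43; limma adjusted p 0.974), with 0.20 when flox array 4 was left out and -0.23 when flox array 1 was. Ccn4, a secreted target of Wnt signalling, had log2 levels of 7.99 to 8.33 on the flox arrays and 7.85 to 8.12 on the WT arrays. Flox arrays 2 and 3 lay above every WT array, and the difference was 0.12 log2 (SE 0.09, 95% interval -0.07 to 0.31; limma adjusted p 0.912), or 0.06 without WT array 4.

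**Figure D3:**
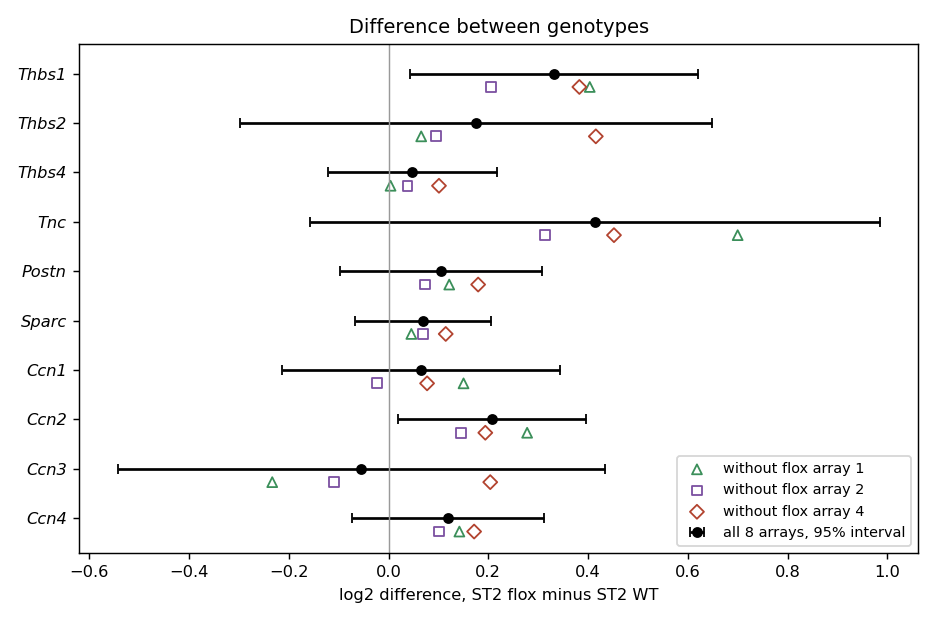
Log2 difference, ST2 flox minus ST2 WT (horizontal axis), for each of the 10 genes. Filled circles with bars are the fit over all 8 arrays with its 95% interval, and open symbols are the fits without flox array 1, 2 or 4. The unadjusted intervals of Thbs1 and Ccn2 lie above 0, and the open symbols of Thbs2, Tnc and Ccn3 lie far from each other.

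The flox arrays scattered more than the WT arrays for 9 of the 10 genes, as they did for 66.1% of all genes tested. For Tnc the SD was 0.66 log2 in flox and 0.105 in WT, a ratio of 6.24 that exceeded the ratio of 97.4% of all genes. For Ccn3 the SD was 0.55 in flox and 0.103 in WT, a ratio of 5.40 that exceeded 96.2% of all genes. The median gene had a ratio of 1.38. These ratios rest on 4 arrays per group and were not tested, and limma uses 1 pooled variance per gene.

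The 10 genes did not vary across the arrays as 1 block. Over their 45 pairs, the median correlation of log2 values minus the group mean was r = 0.35 over the 8 arrays, and it ranged from -0.53 (Thbs4 with Ccn1) to 0.91 (Thbs2 with Ccn3). The arrays are the same for each pair and only 4 belong to each genotype, so these are descriptions. Thbs2, Thbs4, Sparc and Ccn3 formed the closest group, with r between 0.80 and 0.91 for each of their pairs. All 4 were highest on flox array 1 and lowest on flox array 4, and without flox array 4 the correlations of Thbs2 with Ccn3 and Sparc were 0.53 and 0.16. Tnc and Ccn3 had r = -0.27, and -0.94 without flox array 4.

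Fibroblast markers varied across the arrays along with this group. The 7 genes chosen as markers of fibro-adipogenic progenitors, the matrix-making mesenchymal cells of muscle, were all tested, and 3 of them were higher and 4 lower in flox, with a median of -0.0050 log2 (0.00051 after cyclic loess). Their summed intensity ran from 15050 to 22490 on the flox arrays and from 18350 to 19840 on the WT arrays, with its highest value on flox array 1 and its lowest on flox array 4. The mean of these markers had a correlation of 0.99 with Ccn3, 0.92 with Sparc, 0.89 with Thbs2 and 0.86 with Thbs4, but -0.28 with Tnc (log2 values minus the group mean, 8 arrays). Without flox array 4 the values were 0.96, 0.65, 0.46 and 0.77 for the same 4 genes, and -0.90 for Tnc. Macrophage markers were higher in flox for all 7 genes tested, with a summed intensity of 8028 to 12550 on the flox arrays and 8649 to 10820 on the WT arrays, also lowest on flox array 4. Their mean had a correlation of 0.88 with Ccn3 and 0.86 with Thbs2, or 0.57 and 0.51 without flox array 4. T cell markers were higher in flox for all 4 tested, with a summed intensity of 512 to 726 on the flox arrays and 482 to 524 on the WT arrays. At an unadjusted limma p under 0.05 there were 2 (Cd3g by 0.85 log2, SE 0.28, and Cd4 by 0.20, SE 0.08), against 2.03% of all genes higher at that level. Cd3g was dim, with a WT mean of 6.45 log2 near the filter level of 6.35. On flox array 4 it was 6.27, below every WT array. Cd8a and Cd3e differed by 0.13 and 0.06, and Cd3d was below the filter. The mean of the 4 tested T cell markers had a correlation of 0.77 with Ccn3 and 0.67 with Thbs2, which turned to -0.12 and -0.39 without flox array 4. Endothelial markers were higher for all 6 (5 after quantile normalization or cyclic loess), with a summed intensity of 6051 to 7050 on the flox arrays and 5986 to 6287 on the WT arrays. Platelet markers, of the cells that store thrombospondin 1, had a summed intensity of 727 to 1711 over 4 tested genes on the flox arrays and 761 to 1273 on the WT arrays. The sum was highest on flox array 2, like Thbs1, and next highest on flox array 1 (1411), where Thbs1 was lowest among the flox arrays. Of the 4 platelet genes, Ppbp and Pf4 were higher in flox and carried the sum. Gp9 and Itga2b were lower, by -0.12 and -0.07 log2, and Itga2b was at its lowest on flox array 2. The 6 tendon markers summed to 5546 to 6226 on the flox arrays and 5169 to 6231 on the WT arrays. The part of any of these cell types in the levels of the 10 genes was not tested.

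Tnc went with a different set. The mean of the regenerating muscle markers Myh3, Myh8, Myog and Myod1 had r = 0.78 with Tnc and -0.79 with Ccn3 (0.975 and -0.94 without flox array 4). Their summed intensity was lowest on flox array 1, at 2472 against 3193 to 3418 on the other flox arrays and 2844 to 2990 on the WT arrays. Each of the 4 was lowest there. Myog and Myod1 were highest on flox array 4 (8.41 and 9.83 log2), whereas Myh3 was highest on flox array 2, and Myh8, like Tnc, on flox array 3. The genes whose pattern was most like that of Tnc over the 8 arrays were Tyms, thymidylate synthase (r = 0.99), Acta2, smooth muscle actin (r = 0.99), and Ndc80, a kinetochore protein (r = 0.96). Acta2 had log2 levels of 11.39, 11.76, 11.91 and 11.67 on flox arrays 1 to 4, against 11.54, 11.46, 11.55 and 11.58 on WT arrays 1 to 4, in the same order as Tnc within the flox group. Its difference was 0.15 log2 (SE 0.10). Acta2 was also 1 of 5 genes chosen as markers of pericytes and smooth muscle. The mean of those 5 markers had r = 0.115 with Tnc (0.069 without flox array 4), so the list as a whole did not follow Tnc.

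For the other genes the closest patterns were as follows. Ccn3 was most like Mecom, a zinc finger transcription factor, and Apoe, a lipid carrier (r = 0.997 and 0.996), and Thbs2 was most like Lrrc17 and Ddost (r = 0.99 for each). Thbs4 was most like Ctsk, the collagen-degrading cathepsin (r = 0.996), and Adgra2 (r = 0.985). Thbs1 was most like Cdk6 and Tfpi2 (r = 0.97 and 0.96), Ccn1 like Fgf1 and Ccn2 like Kctd17 (r = 0.98 for each). Postn was most like Cdca8 and Sparc like Ptgfrn (r = 0.98 for each), and Ccn4 was most like Lrrc58 (r = 0.96). Each of these genes was among the 3 with the highest correlation out of all genes tested, on 8 arrays in 2 groups.

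**Figure D4:**
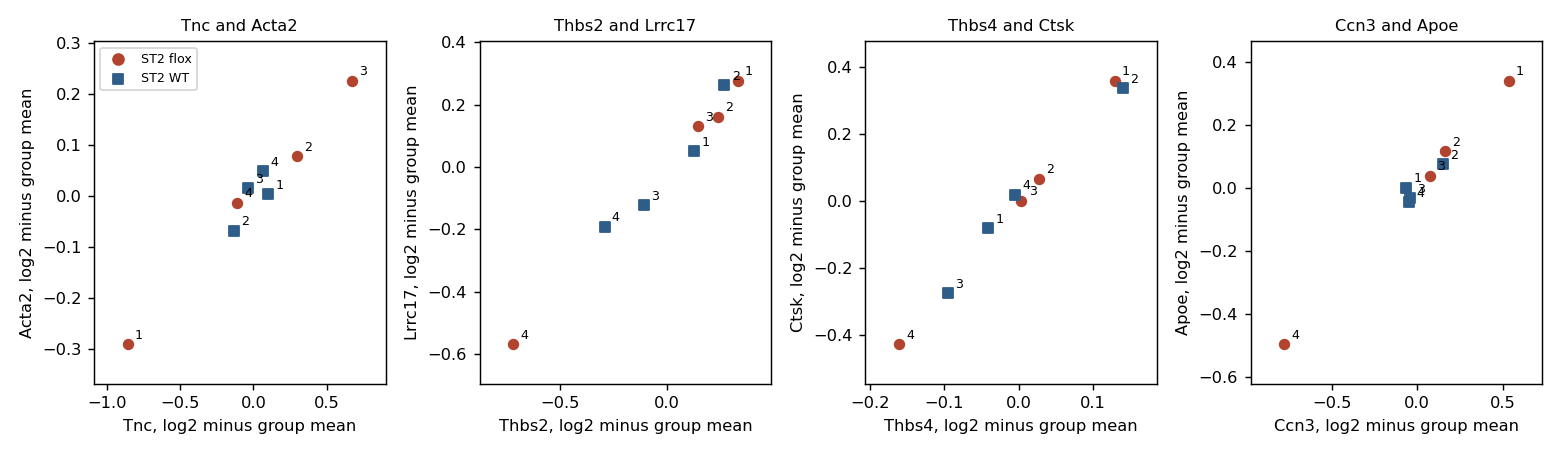
Log2 level minus the group mean for 4 of the genes (horizontal axes) against a gene of like pattern (vertical axes). Circles are ST2 flox arrays and squares ST2 WT arrays, each with its sample number. Flox array 1 sits at the low end for Tnc and Acta2 and at the high end for Ccn3 and Apoe.

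The related genes of the pathway were taken from lists of relatives, receptors, regulators, targets and matrix partners, and none passed the threshold in limma (0 of 80 tested, with 7 entries of these lists at an unadjusted p under 0.05, all higher in flox). Over all genes tested 2.03% were higher at that level and 3.79% differed in either direction. A higher mean in flox was found for 48.8%, the share against which the counts of each list stand. With the filter at the 50th percentile that share was 57.4%. Of the 15 relatives tested, which include the other thrombospondin Thbs3, cartilage oligomeric matrix protein Comp and the remaining CCN genes Ccn5 and Ccn6, 7 were higher and 8 lower, with a median of -0.01 log2. The smallest p among them belonged to Spock1, Smoc1 and Smoc2, relatives of Sparc, with differences of -0.12, -0.12 and -0.09 log2, none at an unadjusted p under 0.05.

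Receptor genes had a higher mean in flox for 21 of 24 (17 after quantile normalization), with a median of 0.07 log2 and 2 at an unadjusted p under 0.05. Itga5, the alpha chain of the fibronectin receptor, had log2 levels of 9.58, 9.84, 9.56 and 9.22 on flox arrays 1 to 4, against 9.24, 9.43, 9.10 and 9.09 on WT arrays 1 to 4. Flox arrays 1 to 3 were above every WT array and flox array 4 was below WT arrays 1 and 2. The difference was 0.34 log2 (SE 0.12, limma unadjusted p 0.0211, adjusted p 0.912). Itga6, a laminin receptor chain that also binds CCN proteins, differed by 0.16 (SE 0.07), and Itga9, a tenascin C receptor chain, by 0.14 (SE 0.07). The thrombospondin receptors Cd36 and Cd47, named after their values were seen, differed by 0.01 (SE 0.06) and 0.14 (SE 0.12).

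Upstream, 10 of 15 regulators had a higher mean in flox, with a median of 0.02 log2, but 7 of 15 with a median of -0.01 after quantile normalization. Tgfb1, the growth factor that thrombospondin 1 can activate, had the smallest p of all the related genes: flox arrays 1 to 4 had log2 levels of 9.13, 9.17, 9.16 and 9.14, against 8.92, 8.98, 9.04 and 8.94 on WT arrays 1 to 4. All flox arrays lay above every WT array, and the difference was 0.18 log2 (SE 0.05, limma unadjusted p 0.00603, adjusted p 0.912). Groups did not overlap for 1 of the 15 regulators, against 1.97% of all genes tested. Tead2, a DNA-binding partner of YAP, differed by 0.11 (SE 0.07) and the SRF cofactor Mrtfb by -0.08 (SE 0.07).

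Other targets of YAP, SRF and TGF-beta had a higher mean in flox for all 13 tested (12 after quantile normalization or cyclic loess), with a median of 0.10 log2, and 2 had an unadjusted p under 0.05. These were Tgfb1i1, a focal adhesion adaptor (0.19, SE 0.07), and the actin crosslinker Flna (0.24, SE 0.11). Tgfb1i1 was higher on all flox arrays (9.19, 9.39, 9.32 and 9.19) than on any WT array (9.01, 9.03, 9.17 and 9.11). Matrix partners and processing genes were higher for 12 of 13 (11 after quantile normalization or cyclic loess), with a median of 0.08 log2 (0.05 after quantile normalization). Serpinh1, the collagen chaperone, differed by 0.27 (SE 0.08), with all flox arrays above every WT array. In each of these 2 lists the groups did not overlap for 1 of the 13 genes, against 1.97% of all genes tested. Adamts1, a protease known to cleave thrombospondins, differed by 0.19 (SE 0.07).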

How the data were processed

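RNA of 8 whole-muscle samples was hybridised to Affymetrix Mouse Gene 1.0 ST arrays, 1 array per sample. The deposited values are probeset intensities that the authors made with RMA in Affymetrix Power Tools, per the submitters' processing notes. For versions, build and row filters nothing is given in the sources used here. RMA corrects background, aligns arrays and summarises probes, so a shift shared by most genes would not show, and changes of dim probesets are compressed. Precision is limited by the number of arrays.

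Values were put on a log2 scale with no pseudocount. Of 24922 rows, 21425 had 1 gene symbol in the platform annotation, 1399 several and 2098 none. Rows with a mean below the 25th percentile (log2 6.35) were left out and the brightest row per gene was kept, which left 15007 genes. The comparison of flox with WT used limma 3.58.1 (R 4.3.3; lmFit and eBayes, group as the only term, Benjamini-Hochberg adjustment over all genes, threshold 0.05), tested on simulated data. Samples were grouped by title.

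The 10 genes, all named, and the lists were chosen with earlier results of these data known. From each list up to 3 genes with the smallest p were named, and for each of the 10 genes up to 3 genes of like pattern. Outside that rule, Thbs3, Comp, Ccn5 and Ccn6 were named among the relatives, and Cd36 and Cd47 among the receptors. All 4 tested platelet, regenerating muscle and T cell markers were also named, as were Krt14, Krt1 and Cd3d, which were below the filter. Alternatives covered the filter, row choice, normalization, log offset, variance prior, sample number as a block and each array left out. No direct check of the deletion was made; the floxed gene is not analysed here.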

Additional observations from a re-analysis of the deposited data

Results flagged for a closer look

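Of the 20 groups of 4 arrays formed by the 10 genes and both genotypes, 1 held an array far from the others, and chance alone gives about 1 in 20. Ccn3 on WT array 2 had a log2 level of 9.396 against 9.203 on the next WT array, a gap that made up 0.884 of the group's range. The cause was not tested.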

How the results depend on the processing

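No alternative let any of the 10 genes pass the adjusted threshold. The number at an unadjusted p under 0.05, 2 over all arrays, was 1 with quantile normalization and 1 with cyclic loess. Of all genes 4.13% and 4.29% were at that level there, against 3.79% over all arrays. With 1 array left out the number was 0 to 3. It was 0 without flox array 2 or WT array 3 (1.63% and 2.73% of all genes). It was 3 without flox array 1 or flox array 4 (3.84% and 20.1% of all genes). The number of the 10 genes whose groups did not overlap was 0 to 3 over those fits, 3 without flox array 1 (Thbs1, Tnc and Ccn2) and 2 without flox array 4 (Thbs2 and Sparc). Over all arrays 1.97% of all genes had such groups. Groups separate more readily with an array fewer, and no such share is given here for the fits with 1 array left out. The counts from those fits therefore cannot be set against the 1.97%. Genes past the threshold over the whole table were 0 to 2, the 2 without flox array 4, where 3012 genes had an unadjusted p under 0.05 against 569 over all arrays. Leaving out an array moved the difference of Ccn1 between -0.024 (without flox array 2; -0.018 without WT array 2) and 0.15, and that of Ccn3 between -0.23 and 0.20 (without flox array 4). The other 8 genes kept a higher flox mean under every alternative run. Averaging all rows of a gene changed none of the 10 genes, which have 1 row each. The causes were not tested.

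Samples with the same number in both groups had deviations from their group means that correlated by -0.0017, 0.35, 0.25 and 0.04 for numbers 1 to 4, and not every sample was closest to its own number, so the numbers were not taken as pairs. With sample number as a replicate block, 0 of the 10 genes and 0 of all genes passed. In that fit 2 of the 10 genes had an unadjusted p under 0.05, against 4.62% of all genes, and 9 had a higher flox mean, against 48.8%.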

Other observations

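Some of the 10 genes also differed by sample number. The mean log2 level on arrays numbered 1 and 2 minus that on arrays numbered 3 and 4 was 0.57 in flox and 0.40 in WT for Thbs2, 0.17 in flox and 0.28 in WT for Thbs1, and 0.70 in flox and 0.09 in WT for Ccn3. For Tnc it was -0.56 in flox and -0.03 in WT. The labels do not say what the numbers stand for, and these differences were not tested.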
